A study of Mus musculus with 6 samples.

Results

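The genes of the cyclin D and CDK4/6 step of the cell cycle were followed in mouse 4T-1 cells, an established line from a mammary carcinoma. The set held 3 D cyclins (Ccnd1, Ccnd2, Ccnd3), 2 kinases (Cdk4, Cdk6), 4 INK4 inhibitors (Cdkn2a, Cdkn2b, Cdkn2c, Cdkn2d) and Cdkn1b, which encodes p27. They were chosen by name, 10 of the 55487 genes in the deposited count table, through the Ensembl identifiers and GRCm38 gene symbols. Earlier results of these data were known at that choice. RNA sequencing covered 3 wild-type libraries and 3 libraries of Lyplal1 knockout cells, all without any treatment. The deposited labels are 4T1_NC for wild type and 4T1_sg2 for the knockout, with no other knockout label. Effects particular to the sg2 cells cannot be told apart from those of the knockout. Lyplal1 encodes a lysophospholipase-like hydrolase, and the series as a whole concerns its removal of palmitate from the DNA sensor cGAS. The sources used here give neither whether the knockout cells were 1 clone nor whether the libraries of a group were separate cultures. The p-values therefore measure the spread between these libraries, which may be technical.

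D cyclins are made in response to growth signals and bind CDK4 or CDK6. The active kinase phosphorylates the retinoblastoma protein RB, which then releases E2F transcription factors, and these switch on genes for DNA synthesis. INK4 proteins bind CDK4 and CDK6 and keep cyclin D away, while p27 blocks CDK2 complexes and also binds cyclin D complexes. Cyclin D1 is needed for growth of the mammary gland and is often raised in breast cancer, and Cdkn2a, which encodes p16Ink4a and p19Arf from different first exons, is a frequently lost tumour suppressor.

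The libraries held between 16731209 and 17108975 counts assigned to genes. The wild-type libraries held 76, 73 and 68 Lyplal1 reads, and the knockout libraries 54, 48 and 58. For this gene the log2 fold change was -0.28 ± 0.15 (SE) with an adjusted p of 0.0886 (edgeR quasi-likelihood test, Benjamini-Hochberg adjustment), so the RNA level did not check the genotype labels. The summed level of 7 mammary epithelial markers, of which 6 had at least 10 counts, lay between 6650 and 6820 TPM (a level scaled by gene length and library size) in wild type and between 2610 and 2710 in the knockout. Krt18 was the largest part, at 3790, 3950 and 3950 TPM in wild type and 1280, 1250 and 1200 TPM in the knockout. Cdh1 fell less, from 882, 877 and 884 TPM to 692, 700 and 654 TPM, and the groups overlapped at Krt14. Markers of lung epithelium stood at 1.35, 0.625 and 1.12 TPM in wild type and at 150, 184 and 726 TPM in the knockout libraries, with all 3 markers (Sftpc, Scgb1a1, Sftpb) detected. Leukocyte markers, 3 of 6 with at least 10 counts and mostly Lyz2, reached 5.14, 8.41 and 46.9 TPM in the knockout against 0.173 to 0.566 in wild type, and the fat cell markers Adipoq and Plin1 were at 0 in all libraries. Fibroblast markers, mostly Pdgfra, lay between 29.5 and 30.7 TPM in wild type and between 62.1 and 67.1 TPM in the knockout. Col1a1 of that list went the other way, with 65, 60 and 71 counts in wild type and 15, 14 and 37 in the knockout. Col1a2, Col3a1 and Dcn were highest in knockout replicate 3 (33, 64 and 16 counts). Endothelial markers reached 0.644, 1.05 and 3.66 TPM in the knockout, with a highest wild-type value of 0.172. Knockout replicate 3 was thus the library farthest from the others, and the part of these marker RNAs in the results below was not tested. In bulk RNA, fewer cells of a type and less RNA per cell cannot be told apart.

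The INK4 locus is shown first, because Cdkn2a and Cdkn2b, which lie next to each other on chromosome 4, gave almost no reads in either group. The sequences come from RefSeq promoter windows on GRCm38.p6 (250 bases before to 50 bases after a start), read 5′ to 3′ along the gene. Each was cut at its first base in an annotated exon. Capitals mark CpG dinucleotides, the sites of DNA methylation.
Cdkn2a, upstream start (p19Arf), chr4:89294654-89294869, minus strand: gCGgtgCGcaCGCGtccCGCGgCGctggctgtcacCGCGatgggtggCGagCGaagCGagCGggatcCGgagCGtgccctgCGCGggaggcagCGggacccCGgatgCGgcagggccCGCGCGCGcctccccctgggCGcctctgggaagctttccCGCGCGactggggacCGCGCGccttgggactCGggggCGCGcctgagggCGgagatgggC
Cdkn2a, downstream start (p16Ink4a), chr4:89282193-89282442, minus strand: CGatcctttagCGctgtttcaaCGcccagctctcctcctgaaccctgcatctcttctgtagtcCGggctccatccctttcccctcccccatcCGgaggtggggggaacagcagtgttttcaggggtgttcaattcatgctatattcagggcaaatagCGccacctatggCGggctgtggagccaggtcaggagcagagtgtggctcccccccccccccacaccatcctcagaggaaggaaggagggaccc
Cdkn2b (p15), chr4:89311040-89311282, minus strand: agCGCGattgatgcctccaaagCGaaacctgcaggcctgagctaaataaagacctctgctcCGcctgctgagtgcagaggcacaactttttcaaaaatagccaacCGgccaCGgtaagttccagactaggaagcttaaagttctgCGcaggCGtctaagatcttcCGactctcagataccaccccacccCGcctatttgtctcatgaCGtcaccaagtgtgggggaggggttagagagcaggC
Cdk6, chr5:3343643-3343731, plus strand: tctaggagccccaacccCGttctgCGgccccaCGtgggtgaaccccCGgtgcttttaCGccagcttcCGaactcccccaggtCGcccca
The Cdk6 window belongs to the member with the largest difference between the groups. It lies inside the annotated gene, which begins at 3341485. Of its 250 bases before the start, 193 were outside exons and the first 89 are printed. In the 250 bases before the start, CpG counts were 40 for the p19Arf start, 7 for the p16Ink4a start, 12 for Cdkn2b and 22 for Cdk6, against a median of 6 over all 32851 windows. The other members had 28 (Cdkn1b), 29 and 6 (2 starts of Cdkn2c), 16 (Cdkn2d), 13 (Cdk4), and 11 and 19 (2 starts of Ccnd3). Windows matched 8 of the 10 members, with 11 starts, and Ccnd1 and Ccnd2 had no entry. The 4 E2F motifs searched (TTTCGCGC, TTTGGCGC, TTTCCCGC, TTTGGCGG), read on both strands, matched 1 of the 11 member windows and 777 of the 32851 windows (2.37%). The match was TTTCCCGC, read along the gene, 99 bases before the p19Arf start and inside the sequence printed above, and it overlapped no match of the other motifs searched. The AP-1 letters TGACTCA or TGAGTCA occurred in 0 of 11 member windows and 5.2% of all windows, and GAAANNGAA occurred in 0 of 11 and 8.56%.

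Wild-type and knockout libraries differed at most genes: 10711 of 13022 tested genes passed the 5% threshold in edgeR's quasi-likelihood test (82.3%), with 5382 higher (41.3%) and 5329 lower (40.9%) in the knockout. Of the 10 members 8 passed the filter on low counts, and 3 of these were called higher, 4 lower and 1 not called. That share is near the background, so the count is no result about the members. Against a fold change of at least 1.5, 5193 genes (39.9%) were called, 2503 higher (19.2%) and 2690 lower (20.7%), and among the members Cdk6 and Ccnd1 were lower and none was higher. The median log2 fold change of the 8 members was -0.113 against -0.00121 over all tested genes. Levels in CPM (counts scaled to library size) did not overlap between the groups at 7 of the 8 members, and at 83.1% of all tested genes.

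Ccnd1 (ENSMUSG00000070348; chromosome 7, 144929931 to 144939925, minus strand) encodes cyclin D1 and was lower in the knockout. Its counts were 15910, 15363 and 16223 in wild type and 9051, 8816 and 8674 in the knockout. In CPM it fell from 886.8 ± 25.4 (SD, n = 3) to 553.9 ± 10.4 (SD, n = 3), a level 1.6-fold higher in wild type. The 2 groups were well apart, since the lowest wild-type library stood at 861.0 CPM and the highest knockout library at 565.7 CPM. Its log2 fold change was -0.68 ± 0.0317 (SE; adjusted p = 7.38e-17), and 22.4% of all tested genes had a lower value. Its level exceeded that of 99.4% of tested genes in wild type. In exons, 1100 bases (23.4%) of Ccnd1 overlap LTO1 on the other strand, which had 226, 230 and 246 counts in wild type and 139, 154 and 161 in the knockout. The counting strand setting is not given in the sources used here, so reads in the shared bases may belong to either gene.

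Ccnd2 (ENSMUSG00000000184; chromosome 6, 127125162 to 127152193, minus strand) encodes cyclin D2. Its CPM values were 251.8, 240.7 and 252.5 in wild type and 277.9, 264.1 and 248.7 in the knockout, and the groups overlapped. With a log2 fold change of 0.086 ± 0.038 (SE; adjusted p = 0.0399) Ccnd2 was called higher in the knockout under the trimmed mean scaling, but it was -0.047 with upper-quartile scaling and -0.12 on log2(TPM + 1), where the median of all genes also shifted to -0.134 and -0.193. Relative to those medians it was 0.087 and 0.071. On log2(TPM + 1) the call turned to lower (adjusted p = 0.049), and 2 members were then higher and 6 lower. The call to higher was lost with DESeq2 (adjusted p = 0.0757) and on leaving out wild-type replicate 1, 2 or 3 or knockout replicate 1 (adjusted p = 0.0712, 0.226, 0.053 and 0.231). Its value lay close to the middle of all genes, and its call depended on the scaling and the libraries.

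Ccnd3 (ENSMUSG00000034165; chromosome 17, 47505051 to 47599691, plus strand) encodes cyclin D3 and was higher in the knockout. Its CPM values were 58.36, 53.58 and 58.23 in wild type and 74.75, 72.84 and 76.45 in the knockout, 1.32-fold higher. It had a log2 fold change of 0.40 ± 0.0472 (SE; adjusted p = 1.88e-08), with 0.26 after upper-quartile scaling and 0.18 on log2(TPM + 1). Those 2 values were 0.40 and 0.38 relative to the medians of all genes. Each library of one group lay apart from each library of the other. Bysl, which encodes a ribosome assembly factor, shares 361 exon bases (4.11%) with Ccnd3 on the other strand and had a log2 fold change of 0.98. The processed copy Ccnd3-ps, 96.3% identical over 881 bases, had at most 2 counts in a library. The genes whose pattern over the 6 libraries lay nearest to Ccnd3, by Euclidean distance of centred log2 CPM, were Plxna1 (0.0451), Vars2 (0.0466) and Tubgcp4 (0.0512).

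**Figure D1:**
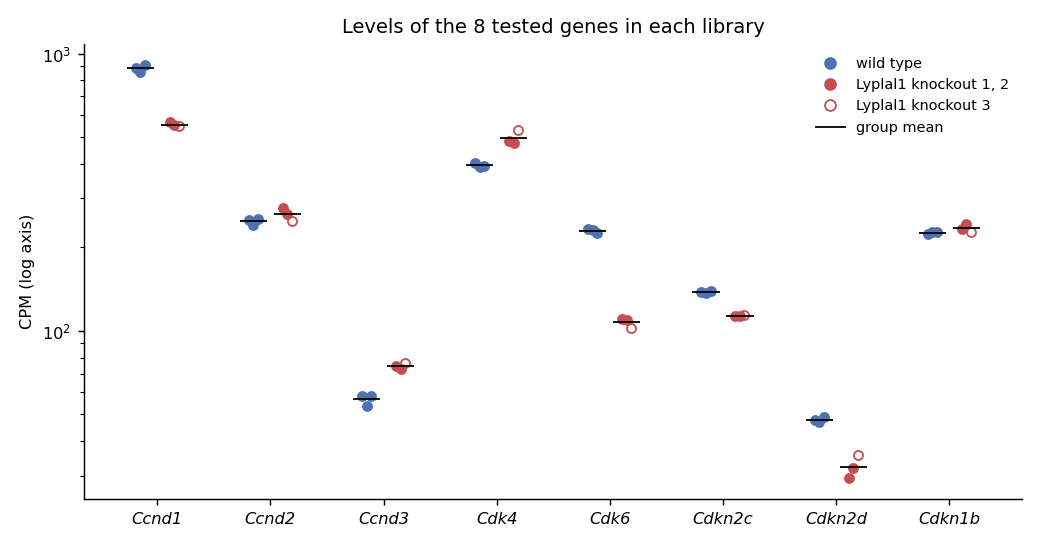
CPM (logarithmic axis) of the 8 tested genes, with 1 point per library, blue for wild type, red for Lyplal1 knockout, an open circle for knockout replicate 3 and a line at each group mean. Cdk6 and Ccnd1 lie lower in the knockout, Cdk4 and Ccnd3 higher, and the Ccnd2 points overlap.

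Cdk4 (ENSMUSG00000006728; chromosome 10, 127063534 to 127067920, plus strand) encodes CDK4, the kinase partner of the D cyclins, and was higher in the knockout. Its CPM values were 402.5, 390.0 and 392.7 in wild type and 484.1, 476.5 and 530.5 in the knockout. The log2 fold change was 0.33 ± 0.0363 (SE; adjusted p = 4.91e-09), with a level 1.26-fold higher, and it was 0.29 without knockout replicate 3. With upper-quartile scaling it was 0.20 and on log2(TPM + 1) 0.12, or 0.33 and 0.31 relative to the medians of all genes. Tspan31, a tetraspanin gene, overlaps 641 exon bases (19.7%) of Cdk4 on the other strand and had a log2 fold change of 0.44 in the same direction.

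Cdk6 (ENSMUSG00000040274; chromosome 5, 3341485 to 3531008, plus strand) encodes CDK6 and had the largest difference among the 8 tested members. Its counts were 4169, 4134 and 3999 in wild type and 1767, 1754 and 1630 in the knockout. In CPM it fell from 229.7 ± 4.28 (SD, n = 3) to 107.5 ± 4.3 (SD, n = 3), a level 2.14-fold higher in wild type, and no knockout library reached a wild-type value. The log2 fold change was -1.10 ± 0.0377 (SE; adjusted p = 9.4e-20), and 14.0% of all tested genes had a lower value. It was -1.23 after upper-quartile scaling and -1.27 on log2(TPM + 1), or -1.09 and -1.08 relative to the medians of all genes. The nearest patterns to Cdk6 over the 6 libraries were those of Zfp704 (0.0602), Ppp4r3a (0.0627) and Spred2 (0.0627).

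**Figure D2:**
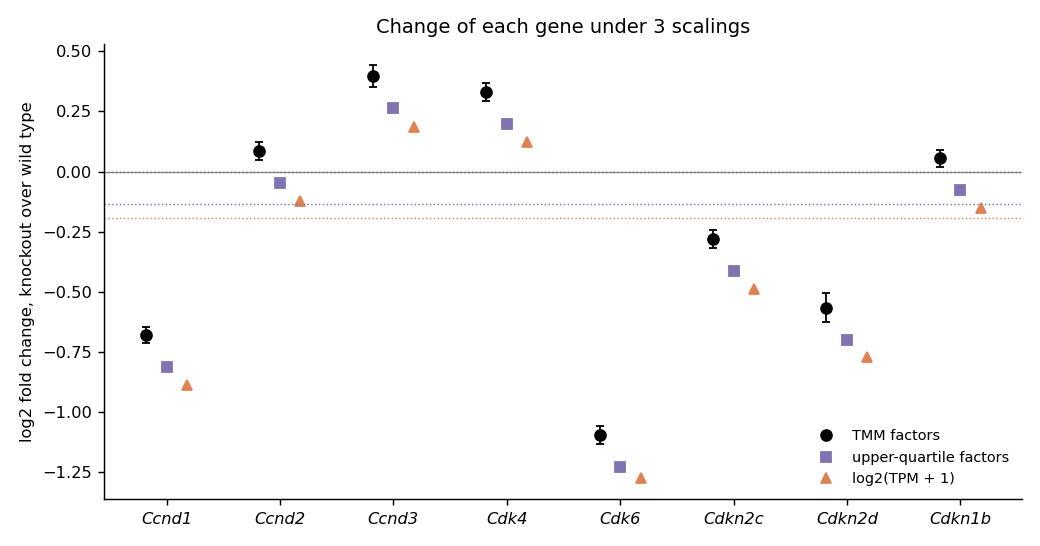
Log2 fold change of each tested member, knockout against wild type, with trimmed mean (TMM) scaling (circles, bars are SE), upper-quartile scaling (squares) and log2(TPM + 1) (triangles), and dotted lines at the median of all genes. Ccnd2 and Cdkn1b lie on either side of 0 depending on the scaling, and Cdk6 has the lowest value under each.

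Among the INK4 genes, Cdkn2c (ENSMUSG00000028551; chromosome 4, 109660876 to 109667189, minus strand), which encodes p18, was the most abundant. Its CPM values were 137.9, 136.8 and 139.0 in wild type and 113.1, 113.1 and 114.2 in the knockout, with little spread inside each group. It was 1.22-fold higher in wild type, with a log2 fold change of -0.28 ± 0.0367 (SE; adjusted p = 9.85e-08). It was -0.41 with upper-quartile scaling and -0.49 on log2(TPM + 1), or -0.28 and -0.29 relative to the medians of all genes.

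Cdkn2d (ENSMUSG00000096472; chromosome 9, 21288410 to 21291407, minus strand) encodes the INK4 protein p19Ink4d and was lower in the knockout. Its CPM values were 47.7, 46.8 and 48.73 in wild type and 29.38, 31.9 and 35.55 in the knockout, 1.48-fold higher in wild type. The log2 fold change was -0.57 ± 0.0606 (SE; adjusted p = 2.83e-09), and the call did not hold against a 1.5-fold change (adjusted p = 0.691). The knockout libraries varied more than the wild-type ones, and the value was -0.63 without knockout replicate 3.

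Cdkn2a (ENSMUSG00000044303; chromosome 4, 89274471 to 89294653, minus strand) had 0, 0 and 0 counts in wild type and 0, 1 and 0 in the knockout. Cdkn2b (ENSMUSG00000073802; chromosome 4, 89306299 to 89311039, minus strand) had 0, 0 and 0 in wild type and 0, 0 and 3 in the knockout, all 3 reads in knockout replicate 3. A floor of 3 counts per group, which covers counting error only, is 0.056 CPM in wild type and 0.0626 CPM in the knockout. Neither gene passed the filter, and no fold was formed for genes at or under the floor. Cdkn2a lay under that floor in both groups, and Cdkn2b lay under it in wild type and at it in the knockout, with exactly 3 counts.

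Reads around this locus were examined after these values were seen. Within 500 kb of Cdkn2a, 9 of 38 genes had at least 10 counts over all libraries. Mtap (chromosome 4, 89137122 to 89181081), which encodes methylthioadenosine phosphorylase and is often lost together with CDKN2A in human tumours, had 12247, 12298 and 12454 counts in wild type and 4445, 4473 and 4490 in the knockout. Its level fell from 690.8 ± 8.46 CPM (SD, n = 3) to 279.8 ± 2.41 CPM (SD, n = 3), a log2 fold change of -1.30 ± 0.0311 (SE; adjusted p = 2.75e-23). The transcript AL805899.1 had 600, 573 and 588 counts in wild type and 224, 223 and 207 in the knockout. Of the 9 genes 8 had fewer unscaled counts in the knockout, and Wincr1, a noncoding RNA gene, had more, with 17, 26 and 36 counts in wild type and 28, 38 and 36 in the knockout. Several of the 8 had few reads, among them Gm12607 (9 counts in wild type and 4 in the knockout) and Gm26490 (15 and 2). Over all tested genes 40.9% were called lower, and whether the region changed as a whole was not tested. Dmrta1, on the other side of Cdkn2b, had 0 counts in all 6 libraries. On that same side Gm12608 had 9, 2 and 2 counts in wild type and 0, 0 and 0 in the knockout. Gm12606, next to Cdkn2a, had 14, 25 and 12 in wild type and 1, 2 and 1 in the knockout.

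**Figure D3:**
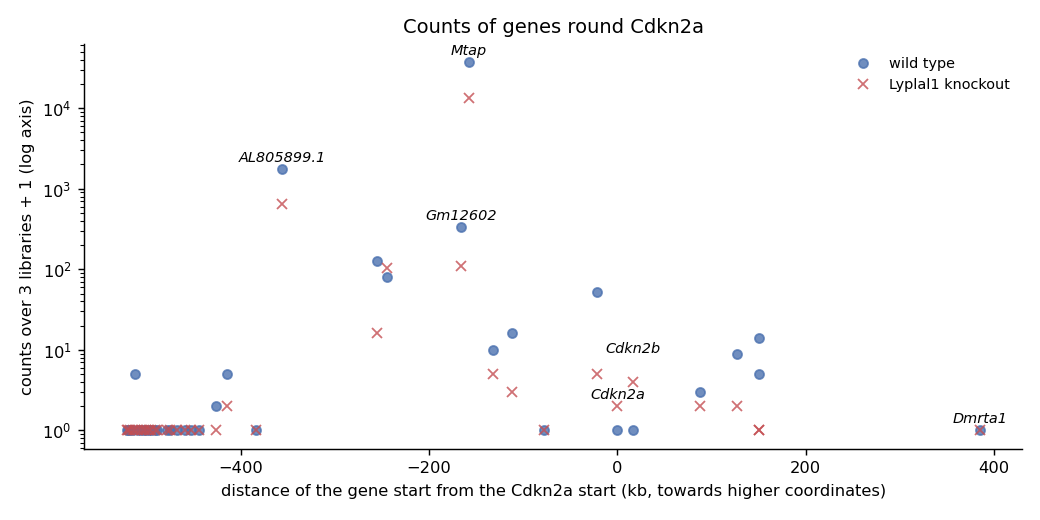
Counts summed over the 3 libraries of each group plus 1 (logarithmic axis) for genes near Cdkn2a, against the distance in kb of each gene's start from the Cdkn2a start, with circles for wild type and crosses for knockout. Mtap, at -157.5 kb, had 36999 and 13408 counts, whereas Cdkn2a and Cdkn2b were at or near 0.

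Cdkn1b (ENSMUSG00000003031; chromosome 6, 134920401 to 134925513, plus strand) encodes p27. Its CPM values were 222.6, 226.8 and 226.6 in wild type and 232.4, 242.2 and 227.7 in the knockout, barely apart at 226.8 and 227.7. The log2 fold change was 0.055 ± 0.0343 (SE; adjusted p = 0.139) and did not pass the threshold, while upper-quartile scaling gave -0.078 (adjusted p = 0.0381) and log2(TPM + 1) gave -0.15 (adjusted p = 0.00395), so its direction depended on the scaling. Relative to the median of all genes, those values were 0.056 and 0.041. Without knockout replicate 3 it was 0.082 (adjusted p = 0.0164).

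Levels between genes were compared per length, in TPM. In wild type the order from highest was Ccnd1, Cdk4, Cdkn2c, Cdkn1b, Cdkn2d, Ccnd2, Cdk6 and Ccnd3, and in the knockout it was Cdk4, Ccnd1, Cdkn1b, Cdkn2c, Ccnd2, Cdkn2d, Ccnd3 and Cdk6. Neighbours in each order did not overlap over the 3 libraries of a group, apart from Cdkn2b and Cdkn2a at the bottom. Cdk6 thus stood above Ccnd3 in wild type and below it in the knockout, with 69.95 ± 1.66 and 28.37 ± 1.6 TPM (SD, n = 3). Ccnd3 had 27.54 and 31.39 TPM. In CPM, without length scaling, Cdk6 stayed above Ccnd3 in the knockout, at 107.5 against 74.68.

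The D cyclins summed to 942.2 ± 23.1 TPM in wild type and 568.9 ± 21.4 TPM in the knockout. Ccnd1 made up 85.15 ± 0.177% of that sum in wild type and 76.31 ± 0.399% in the knockout, Ccnd2 11.93 ± 0.123% and 18.16 ± 0.603%, and Ccnd3 2.922 ± 0.0753% and 5.524 ± 0.212% (SD, n = 3). The groups did not overlap in these values, and the exact two-sided permutation test gave p = 0.1 for each, the smallest p that 3 against 3 allows (0.11 after Benjamini-Hochberg adjustment over 11 such tests). Sums in TPM include the shift of all genes on that scale (median -0.193 on log2(TPM + 1)), while shares within a library do not. In CPM, Ccnd1 fell from 886.8 to 553.9. The mean CPM of Ccnd2 rose from 248.3 to 263.6 and that of Ccnd3 from 56.72 to 74.68. The summed level of Cdk4 and Cdk6 was 588.0 ± 11.0 TPM and 592.4 ± 21.7 TPM, a difference of 4.40 TPM with overlapping groups (exact permutation p = 0.8). Without knockout replicate 3 that difference was -7.94 TPM, and in CPM it was -20.3. The ratio of Cdk4 to Cdk6 was 7.407 ± 0.143 in wild type and 19.96 ± 2.0 in the knockout (SD, n = 3), a log2 ratio of Cdk6 to Cdk4 that differed by -1.43 between the groups and by -1.34 without knockout replicate 3.

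The INK4 transcripts summed to 347.9 ± 2.97 TPM in wild type and 231.7 ± 4.95 TPM in the knockout. Their sum per unit of Cdk4 plus Cdk6 was 0.5918 ± 0.0115 and 0.3913 ± 0.0114, while p27 per unit of D cyclin was 0.2239 ± 0.00721 and 0.3337 ± 0.0124. Without the scaling to gene length, the INK4 ratio differed by -0.0558 between the groups, against -0.201 in TPM. The size of that difference thus depended on the length scaling, since library size cancels in a ratio within a library. The INK4 sum differed by -39.8 in CPM and by -116 in TPM. CPM also uses other library sizes than TPM, and the units are unlike, so these sums cannot be compared directly. Each of these sums and ratios gave an exact permutation p of 0.1 with groups that did not overlap. These are RNA levels, and protein abundance was not measured.

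**Figure D4:**
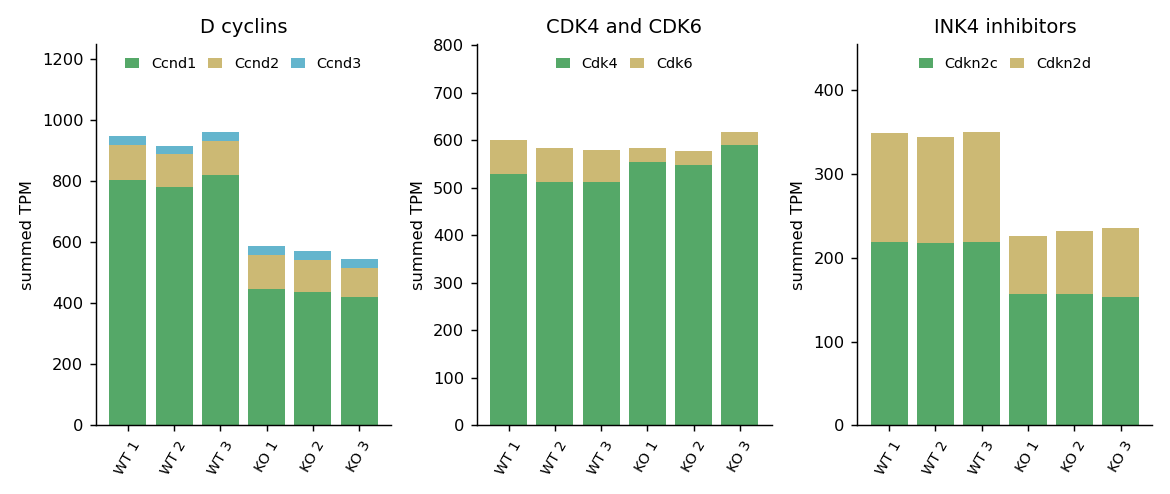
Stacked bars of TPM in each library for the D cyclins, for Cdk4 and Cdk6, and for the INK4 genes Cdkn2c and Cdkn2d (WT, wild type; KO, knockout; numbers are replicates). The D cyclin and INK4 sums lie lower in the knockout, while the kinase sums overlap with means of 588.0 and 592.4 TPM and a smaller Cdk6 segment.

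The pathway lists that follow were chosen with earlier results of these data known, so their counts are descriptions and no test of a pathway. Downstream of the kinases, the 13 RB and E2F factors were all tested, with 8 lower, 1 higher and 4 not called, against 41.3% higher and 40.9% lower over all tested genes. Their median log2 fold change was -0.842, against -0.00121 over all genes. With upper-quartile scaling, and on log2(TPM + 1), 12 were lower and 1 higher. The background moved as well. Of all 13022 tested genes, 6189 were lower and 4630 higher with upper-quartile scaling. On log2(TPM + 1), 6598 were lower and 4125 higher. Tfdp2, a dimer partner of E2F, fell from 68.7 to 17.5 CPM (log2 fold change -1.97 ± 0.056, SE), and E2f8, a repressive E2F, from 84.3 to 32.7 CPM (-1.37 ± 0.0535). E2f2 fell from 24.4 to 9.75 CPM. Rb1, the RB gene, was 40.5 and 37.9 CPM (log2 fold change -0.095, adjusted p = 0.141), and E2f1 was 48.1 and 45.1 CPM (-0.093, adjusted p = 0.112), so neither was called. Both were called lower with upper-quartile scaling, Rb1 at -0.23 (adjusted p = 0.00112) and E2f1 at -0.23 (adjusted p = 0.000439). The median of all genes was -0.134 under that scaling, and these calls depended on the scaling.

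Of the 25 E2F target genes, 18 were lower, 2 higher and 5 not called, against 41.3% higher and 40.9% lower over all tested genes, with a median of -0.373. With upper-quartile scaling 23 were lower, against 6189 of all 13022 tested genes. Rrm2, a subunit of ribonucleotide reductase, fell from 115 to 28.5 CPM (log2 fold change -2.01 ± 0.0471, SE), and Cdc6, a replication licensing factor, from 30.2 to 10.1 CPM (-1.58 ± 0.0812). Uhrf1, which reads hemimethylated DNA, fell from 164 to 68.4 CPM. Of the CDK2 and cyclin E or A genes 5 of 6 were tested, with 4 lower and none higher, and Ccne2 fell from 11.6 to 4.03 CPM (-1.52 ± 0.123). Ccne1 was 6.42 and 5.51 CPM and was not called (adjusted p = 0.0832). With upper-quartile scaling, where the median of all genes was -0.134, it was called lower (log2 fold change -0.35, adjusted p = 0.00726). Of the 5 tested genes, 5 were then lower. Cdkn1a, encoding p21, fell from 19.0 to 9.52 CPM (log2 fold change -0.997 ± 0.092, adjusted p = 1.5e-10), and the CDK-activating kinase genes had 2 of 3 called higher but 0 with upper-quartile scaling. The lists share members, such as Ccne1 and Ccna2.

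**Figure D5:**
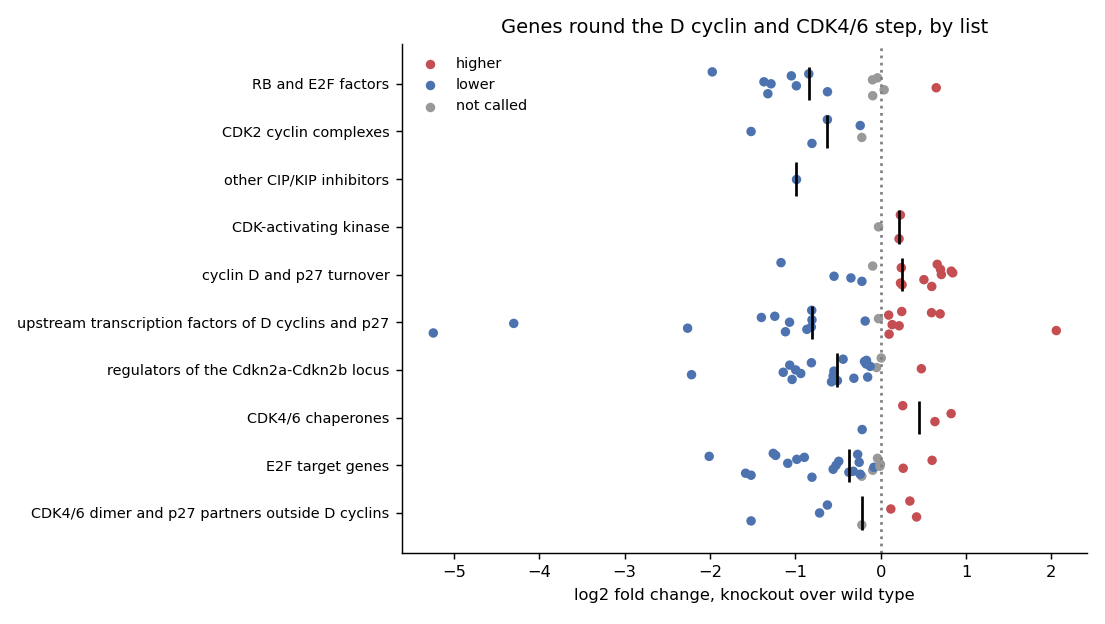
Log2 fold changes of the tested genes in each pathway list, knockout against wild type, 1 point per gene (red higher, blue lower, grey not called), with a bar at the list's median and a dotted line at the median of all genes. The median is -0.842 for RB and E2F factors and 0.251 for the turnover genes.

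For turnover of cyclin D and p27, 10 of 15 genes were higher, 4 lower and 1 not called, against 41.3% higher and 40.9% lower over all tested genes, with a median of 0.251. On log2(TPM + 1), 7 were higher and 5 lower, against 4125 and 6598 of all 13022 tested genes. Gsk3b, the kinase that marks cyclin D1 for degradation, rose from 122 to 220 CPM (log2 fold change 0.84 ± 0.036, SE), and Rbx1, a ring subunit of cullin ligases, from 20.1 to 35.7 CPM. Fbxo4, an F-box protein of a cyclin D ligase, rose by 0.71 ± 0.065 (SE) on the log2 scale, whereas Usp2, a deubiquitinase for cyclin D1, fell from 8.31 to 3.70 CPM. Skp2, which recognises p27, was 44.3 and 41.5 CPM and was not called (adjusted p = 0.113). With upper-quartile scaling, where the median of all genes was -0.134, it was called lower (log2 fold change -0.23, adjusted p = 0.000468). Among CDK4/6 chaperones 3 of 4 were higher and Cdc37, which delivers kinases to HSP90, fell from 392 to 338 CPM (log2 fold change -0.22, and -0.42 on log2(TPM + 1)). Hsp90aa1 rose from 264 to 468 CPM.

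Upstream, 21 of 22 transcription factors for D cyclins and p27 were tested, with 12 lower and 8 higher, against 41.3% higher and 40.9% lower over all tested genes. With upper-quartile scaling 5 were higher, and on log2(TPM + 1) 3 were, against 4630 and 4125 of all 13022 tested genes. Egr1, an immediate early factor, fell from 24.8 to 0.648 CPM (log2 fold change -5.24 ± 0.151, SE), Gli1, a Hedgehog target, from 7.54 to 0.375 CPM (-4.30 ± 0.229, and -2.54 on log2(TPM + 1)) and Fosl1, an AP-1 member, from 38.0 to 7.91 CPM (-2.26 ± 0.0811). Ets2 rose from 46.3 to 193 CPM (2.06 ± 0.0401). Among 21 regulators of the Cdkn2a and Cdkn2b locus, 18 were lower, 1 higher and 2 not called, against 41.3% higher and 40.9% lower over all tested genes, with a median of -0.507. Id1, an inhibitor of basic helix-loop-helix factors, fell from 17.1 to 3.67 CPM (-2.22 ± 0.105), Smad3 from 282 to 135 CPM and the Polycomb gene Cbx8 from 17.1 to 8.33 CPM. Of 7 other cyclin and CDK genes, 3 were higher and 3 lower, with Cdk1 falling from 158 to 96.2 CPM and Ccny rising from 88.2 to 118 CPM (log2 fold change 0.42, and 0.21 on log2(TPM + 1)).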

How the data were processed

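RNA from 6 libraries was sequenced. Gene counts, and TPM values in separate tables, were deposited by the authors; per the submitters' processing notes the tools were STAR 2.7.8a and featureCounts 2.0.1, with their settings and strand setting not given in the sources used here. Each sample's own table equalled its column of the series tables (12 of 12). Of the identifiers, 55227 were matched to GENCODE M21 for symbols, positions and exon overlap.

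Counts were tested with edgeR 4.0.16 (quasi-likelihood, trimmed mean scaling, low-count filter leaving 13022 genes, Benjamini-Hochberg adjustment over all of them, threshold 0.05) in R 4.3.3 with wild type as reference. In simulated data, 85.6% of 97 genes changed 1.5-fold, 92.9% of 98 changed 2-fold and 0.119% of unchanged genes were called. Few genes changed there, so the simulation does not cover data in which most genes differ. CPM values use the scaled library sizes. TPM served for levels per length, sums and ratios, with exact permutation tests (SciPy 1.17.1). Near-identical copies were searched with BLAST 2.17.0. Alternatives were DESeq2 1.42.0, limma 3.58.1 on log2(TPM + 1) and log2(TPM + 0.1), other scalings and filters, a replicate block and leaving out each library. The members and pathway lists were chosen with earlier results of these data known. Named genes were the members, up to 4 called genes of largest absolute change in each list (groups apart, at least 5 CPM in the higher group), Ccne1, Ccne2, Cdk2, Rb1, E2f1, Cdkn1a and Skp2, and the 3 nearest patterns to the members that rose and fell most. The share of called genes that were higher was 50.2%, but 42.8% with upper-quartile scaling and 38.5% on TPM.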

Additional observations from a re-analysis of the deposited data

How the results depend on the processing

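The count of called genes was 10711, and ranged from 10504 to 10776 when 1 library was left out. It was 10798 with the replicate block, which gave the same 3 higher and 4 lower members. Same-numbered libraries did not deviate together (correlations -0.007, 0.042 and 0.013), so the numbers were not taken as pairs, and not every library correlated best with its own number. Against a 1.5-fold change 5193 genes were called, with 0 members higher and 2 lower. Of all tested genes, 19.2% were called higher and 20.7% lower under that test. The list counts, higher then lower, were 0 and 0 for CDK-activating kinase genes, 0 and 2 for CDK2 complexes, and 1 and 0 for chaperones. They were 0 and 2 for the other cyclin and CDK genes, 0 and 9 for E2F targets, and 0 and 7 for RB and E2F factors. For turnover genes they were 4 and 1, for locus regulators 0 and 7, and for upstream factors 2 and 10. Calls lost there were Ccnd2 (0.086), Ccnd3 (0.40), Cdk4 (0.33), Cdkn2c (-0.28) and Cdkn2d (-0.57). With upper-quartile scaling, CDK-activating kinase genes had 0 higher and 1 lower, upstream factors 5 higher, Ccnd2 was -0.047 and Cdkn1b -0.078. Of all 13022 tested genes, 4630 were then higher and 6189 lower. On log2(TPM + 1) and log2(TPM + 0.1), the CDK-activating kinase genes had 0 higher and 1 lower, E2F targets 1 higher and upstream factors 3 higher. Ccnd2 was at -0.12 and Cdkn1b at -0.15 in both. The median of all genes was -0.193 and -0.207 there, and the cause of that shift was not tested. Against these medians Ccnd2 was 0.071 and 0.085, and Cdkn1b was 0.041 and 0.055. Of all tested genes, 4125 and 4112 were higher on these scales, and 6598 and 6570 lower. Ccnd2 lost its call with a 1 CPM filter (0.073), with DESeq2 (0.091) and with its size factors in edgeR (0.081), and ranged from 0.052 to 0.13 when a library was left out. Cdkn1b ranged from 0.038 to 0.082 in those fits and among those was called only without knockout replicate 3. Members called higher numbered 2 to 4 in those fits. The summed level of Cdk4 and Cdk6 differed by -20.3 in CPM, and by -7.94 to 12.6 TPM when a library was left out. Cdkn2a and Cdkn2b entered a test only without the filter (adjusted p = 0.452 and 0.164). With 3 libraries a group, an exact permutation test cannot go below 0.1, and 0 counts limit the INK4 locus genes.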
